A study of Rattus norvegicus with 6 samples.

Results

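Among the circular RNAs of the rat thalamus, 69 were read in every animal, passed a threshold of mean level and differed several-fold between the highest and the lowest rat. Circular RNAs (circRNAs) are closed transcripts made by back-splicing, in which the end of a downstream exon is joined to the start of an upstream exon. A single gene can give several circles that start or end at the same splice site, and lacking free ends they tend to persist longer than linear RNA. In brain they are abundant, and their levels depend both on transcription of the gene and on the choice between linear and back-splicing. The thalamus relays sensory input, including that from the face and jaw, to the cortex.

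The 69 members were chosen by their measured values: reads in all 6 libraries, a mean of at least 50 RPM (reads per 1000000 circRNA reads of the library) and a coefficient of variation (CV, the SD over the mean of the 6 RPM values) of at least 0.70. They are 2.3% of the 3002 expressed circRNAs, those that meet the first 2 conditions, and are taken from 32445 circRNAs in the table. Thalamus RNA came from 6 rats, 3 given CFA (complete Freund's adjuvant, an agent that provokes lasting inflammation) into both temporomandibular joints at a volume of 50 µL, and 3 given saline in the same way. Injections were repeated 2 times per week and tissue was taken at 14 days. The labels name the species, Rattus norvegicus, but no strain, age or sex. The table's column letter for CFA rat 3 differs from that of CFA rats 1 and 2, and the labels do not say what it stands for. No cell type markers could be set against the thalamus label, because the files do not pair circRNA identifiers with host genes. Each circle is therefore identified by its position as the deposited sequence headers give it, in a genome build that the labels do not name. In bulk tissue, fewer cells of a type and less RNA per cell cannot be told apart.

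Library totals ran from 573696 to 1176178 circRNA reads. The lowest count of any member in any library was 2 reads, and a listed count of 0 for a neighbouring circle allows up to 2.55 to 5.23 RPM, depending on the library (3 reads; counting error only). Spread was far above counting error: Poisson counting alone would give the members a CV of 0.128 at the median and 0.161 at most, against a measured median of 0.791 and a highest value of 1.418. These CV chose the members and are given as a description. Over all 3002 expressed circRNAs the median CV was 0.287 and the 95th percentile 0.594. Member means ran from 50 to 1070 RPM with a median of 79.2, against 113 RPM for the other expressed circRNAs, and 18 of the 69 lay under 60 RPM.

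**Figure D1:**
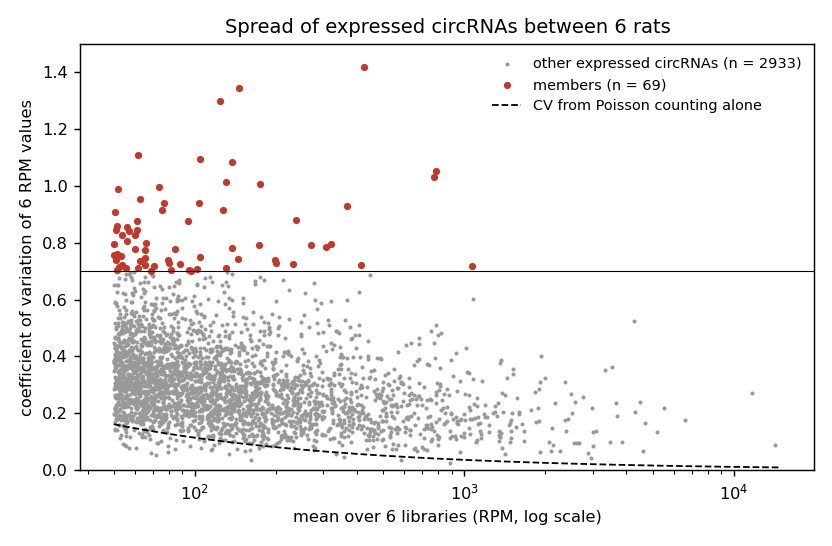
Coefficient of variation of the 6 RPM values against the mean RPM (log scale) for 3002 expressed circRNAs; the solid line is the threshold of 0.70 and the dashed line the CV that Poisson counting alone gives. The 69 members (red) lie between 0.7 and 1.418, and the other 2933 circRNAs are in grey, with the middle value of all 3002 at 0.287.

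The thresholds divide a continuous range. Just inside the CV limit were circles from chromosome 16, 26755422 to 26767549 (CV 0.70), and chromosome 1, 22735614 to 22738713 (0.701). Just outside were circles from chromosome 2, 26252960 to 26280381 (0.697), and chromosome 20, 45189472 to 45193661 (0.697). On the side of the mean, a circle from chromosome 9, 28552021 to 28595563, was inside at 50.02 RPM. A circle from chromosome 4, 127663314 to 127701022, was outside at 49.85 RPM with a CV of 1.024.

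At 5 loci there were 2 or 3 members each, and at all 5 some of them had a junction end in common, which the back-splice junctions show. Each junction below, read from the deposited sequences, has 58 bases, 29 from the end of the circle and then 29 from its start. Capitals mark the side of the join that a member has in common with another member of its locus, a locus being a stretch of one strand covered by overlapping circRNAs. The other circRNAs of a locus, which are no members, are called its neighbours. At the chromosome 3 locus the 3 members begin with the same bases and close onto them from 3 different downstream ends:
chr3:133043468-133122763 (-), 678 nt: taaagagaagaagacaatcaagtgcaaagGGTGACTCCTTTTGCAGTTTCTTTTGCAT
chr3:133099125-133122763 (-), 385 nt: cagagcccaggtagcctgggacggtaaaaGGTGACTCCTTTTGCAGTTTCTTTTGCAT
chr3:133108204-133122763 (-), 354 nt: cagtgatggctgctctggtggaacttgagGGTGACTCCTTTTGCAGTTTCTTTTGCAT

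The chromosome 2 locus at 3809213 has the same arrangement, a common start with different ends. At the chromosome 6 and chromosome 14 loci the members have different starts and a common end:
chr2:3809213-3839676 (+), 583 nt: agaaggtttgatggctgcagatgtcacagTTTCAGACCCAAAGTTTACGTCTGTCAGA
chr2:3809213-3860857 (+), 1086 nt: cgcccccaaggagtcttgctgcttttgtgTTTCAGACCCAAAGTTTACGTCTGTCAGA
chr6:57821344-57852070 (+), 451 nt: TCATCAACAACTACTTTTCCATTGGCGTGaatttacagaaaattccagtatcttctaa
chr6:57837921-57852070 (+), 337 nt: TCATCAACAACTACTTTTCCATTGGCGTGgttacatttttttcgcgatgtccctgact
chr14:114211803-114212243 (-), 329 nt: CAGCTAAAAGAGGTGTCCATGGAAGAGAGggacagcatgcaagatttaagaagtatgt
chr14:114211803-114221178 (-), 595 nt: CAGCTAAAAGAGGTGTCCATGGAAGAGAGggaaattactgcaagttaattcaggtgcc

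At the chromosome 7 locus the 870 nt circle has its start in common with the 383 nt circle and its end in common with the 336 nt circle, so that its whole junction is in capitals:
chr7:110087134-110109834 (+), 383 nt: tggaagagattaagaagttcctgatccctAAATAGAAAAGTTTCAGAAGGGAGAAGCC
chr7:110087134-110121093 (+), 870 nt: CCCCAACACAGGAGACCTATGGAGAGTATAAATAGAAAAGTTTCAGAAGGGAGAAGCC
chr7:110116810-110121093 (+), 336 nt: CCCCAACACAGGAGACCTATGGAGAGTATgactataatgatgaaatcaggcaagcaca

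Junctions of single members of a locus are given for the circle with the highest ratio in saline rat 3, saline rat 1, CFA rat 3 and saline rat 2, and for the circle with the lowest ratio in CFA rat 2, with 5 bases on each side of the join in capitals:
chr5:90040536-90063651 (-), 633 nt: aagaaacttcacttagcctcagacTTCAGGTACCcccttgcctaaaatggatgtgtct
chr17:52477332-52555114 (-), 440 nt: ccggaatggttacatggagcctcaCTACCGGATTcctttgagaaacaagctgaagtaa
chr7:130113212-130114242 (-), 305 nt: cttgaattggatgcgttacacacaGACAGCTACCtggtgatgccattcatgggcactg
chr5:60390691-60393196 (+), 968 nt: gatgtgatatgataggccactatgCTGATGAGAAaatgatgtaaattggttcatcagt
chr8:94799880-94801404 (+), 253 nt: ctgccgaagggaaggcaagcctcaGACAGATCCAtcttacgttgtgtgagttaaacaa

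CFA rat 2 held more of the members' peaks than any other animal: it was the highest library for 32 of the 69 members (46.4%). Saline rat 3 was highest for 12, CFA rat 1 for 11, saline rat 1 for 9, CFA rat 3 for 4 and saline rat 2 for 1. Among the 2933 other expressed circRNAs the highest values were spread more evenly, from 12.7% in CFA rat 1 to 20.6% in CFA rat 2. The lowest values of the members fell most often in saline rat 2 (17 members, 24.6%) and saline rat 1 (16 members, 23.2%). Among the other expressed circRNAs these rats were lowest for 17.2% and 15.9%. Members together took 1.72% of the circRNA reads of CFA rat 2 and 0.596% of those of saline rat 2, while the other expressed circRNAs took 73.5% to 75.1% of every library.

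**Figure D2:**
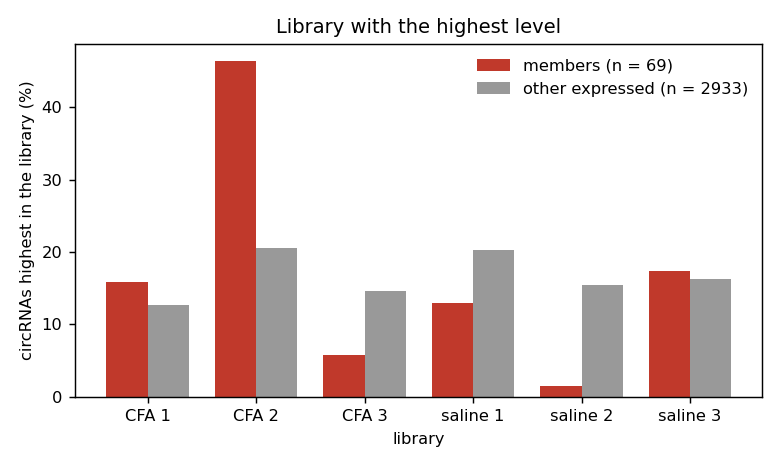
Percent of circRNAs whose highest RPM fell in each of the 6 libraries, for 69 members (red) and 2933 other expressed circRNAs (grey). CFA rat 2 holds 46.4% of the members' highest values and 20.6% of the others'.

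Of the 32 members highest in CFA rat 2, saline rat 3 was second in 20, and in 24 of all 69 members (34.8%) these 2 rats held the 2 highest values. Among the other expressed circRNAs this pair was also the most frequent, at 11.9%. CFA rat 1 and saline rat 3 were the 2 highest for 10 members (14.5%, against 8.56% of the others), and saline rat 1 and CFA rat 3 for 7 (10.1%, against 10.2%). Across the 69 members, the deviations of saline rat 1 and saline rat 3 from each circle's mean log2 level correlated at r = -0.68, and those of saline rat 1 and CFA rat 3 at 0.34. Across the 2933 other expressed circRNAs the same pairs gave -0.49 and 0.09. These correlations run over circRNAs that share libraries, and deviations from a common mean tend to correlate negatively, so they are descriptions only.

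**Figure D3:**
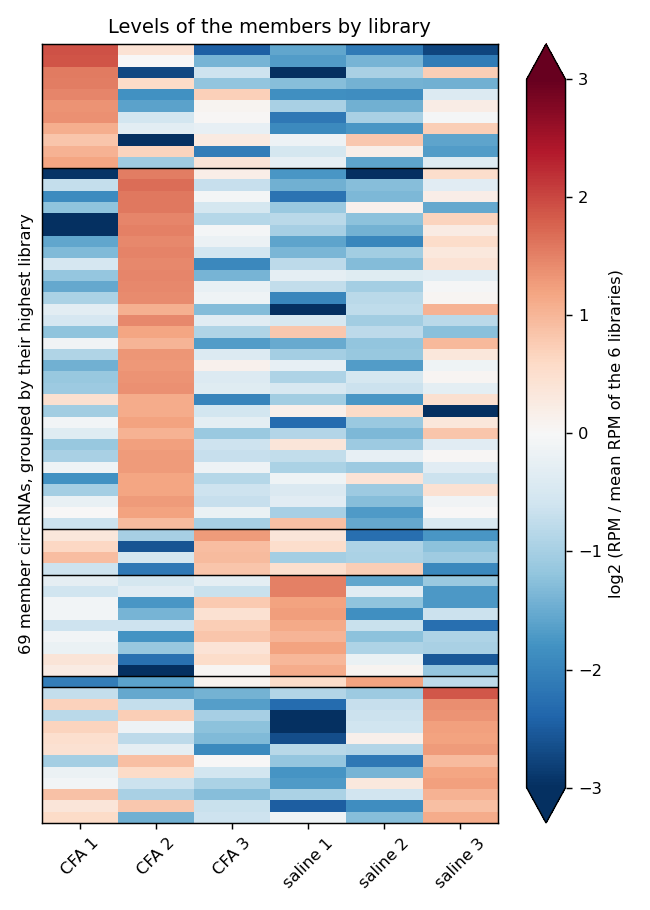
Level of each of the 69 members (rows, grouped by highest library) in the 6 libraries, as log2 of RPM over the mean RPM. The largest block, 32 rows, is highest in CFA rat 2, and in 20 of those rows saline rat 3 is second.

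The spread lay within groups as well as between them. The highest and the lowest library belonged to the same group in 30 of the 69 members (43.5%), close to the 45.4% of the other expressed circRNAs. Within the CFA rats the highest value was 5.16 times the lowest at the median, and within the saline rats 4.48 times, against 1.63 and 1.67 times for the other expressed circRNAs. Over all 6 libraries the ratio ran from 4.01 to 67.7 with a median of 8.52. Members were chosen for the spread of these same 6 values. Ratios above those of the other expressed circRNAs were thus favoured by the rule and are a description only. Members more than 2 times higher in their top library than in the next numbered 24, and those more than 3 times higher numbered 8. Without its highest library, 35 of the 69 still had a CV of 0.70 or more.

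The most variable member was the 678 nt circle of chromosome 3, 133043468 to 133122763 on the minus strand, with a CV of 1.42. It stood at 1585, 575 and 77.5 RPM in CFA rats 1, 2 and 3 and at 145, 96.9 and 63 RPM in saline rats 1, 2 and 3. CFA rat 1 was 8.28 times the mean of the other 5, CFA rat 2 was second, and CFA rat 3 lay among the saline rats. The 385 nt circle with the same start had 536, 147 and 55.3 RPM after CFA and 45.3, 55.3 and 34.2 RPM after saline. The 354 nt circle had 2253, 1162 and 343 RPM against 319, 291 and 285 RPM. All 3 kept the order CFA rat 1, then CFA rat 2, then the rest, and their log2 levels correlated at 0.96 to 0.98 over the 6 libraries. Their sequences are identical over the first 286 bases and differ after that.

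The remaining circles of this locus, summed, varied far less than the 3 members. The locus holds 16 circRNAs, and its 13 other circles summed to 931, 816 and 670 RPM in the CFA rats and 877, 842 and 700 RPM in the saline rats. That sum was also highest in CFA rat 1, at 931 RPM, and lowest in CFA rat 3, at 670 RPM. As a share of the locus, the members made up 82.5%, 69.8% and 41.5% of the reads after CFA and 36.7%, 34.5% and 35.3% after saline. The neighbour with the most reads, a 386 nt circle from 133012095 to 133050098 that shares no end with a member, had 337, 437 and 341 RPM against 488, 474 and 423 RPM. A 560 nt neighbour with the members' start, closing at 133068755, had 213, 98.2 and 113 RPM against 162, 148 and 126 RPM. A 475 nt circle with that start had 119, 46 and 36.5 RPM after CFA and 0, 64.6 and 41.7 RPM after saline. Both were highest in CFA rat 1, at levels well below those of the 354 and 678 nt members.

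At the chromosome 6 locus the neighbours shared the members' peak in CFA rat 2. The 337 nt member, 57837921 to 57852070 on the plus strand, had 83.8, 439 and 85.2 RPM after CFA and 50.5, 57 and 109 RPM after saline. The 451 nt member, which starts at 57821344, had 82.2, 651 and 203 RPM against 143, 116 and 232 RPM. CFA rat 2 was highest for both and saline rat 3 second, and the shorter sequence is contained whole in the longer one. The 22 neighbours, summed, had 169, 968 and 338 RPM after CFA and 284, 200 and 459 RPM after saline. The neighbours' log2 level correlated with that of the 451 nt member at 0.99 and with that of the 337 nt member at 0.86.

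The chromosome 2 locus from 3780516 to 3882502, with 12 circRNAs, followed the same pair of rats. Its 583 nt member had 213, 2365 and 759 RPM after CFA and 171, 309 and 905 RPM after saline. The 1086 nt member had 145, 672 and 204 RPM against 132, 123 and 341 RPM, and it contains the whole sequence of the 583 nt circle. The neighbours summed to 161, 342 and 158 RPM after CFA and 95.9, 125 and 239 RPM after saline. CFA rat 2 led in all 3 series and saline rat 3 came second, but the range narrowed from the 583 nt circle to the neighbours. The 583 nt circle took 70% of the locus reads in CFA rat 2 and 41.1% in CFA rat 1.

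At the chromosome 7 locus the members were minor circles, 7.69% to 18.2% of the locus reads together, and the whole locus was highest in saline rat 3. The 870 nt member, 110087134 to 110121093 on the plus strand, had 168, 62.9 and 33.2 RPM after CFA and 20.9, 64.6 and 272 RPM after saline. The 383 nt member had 139, 52.2 and 55.3 RPM against 17.4, 19.6 and 109 RPM, and the 336 nt member 92.9, 26.1 and 21 RPM against 26.1, 34 and 105 RPM. Saline rat 3 and CFA rat 1 were the 2 highest for each. The 13 neighbours summed to 1790, 1355 and 1106 RPM after CFA and 730, 1419 and 2444 RPM after saline, with saline rat 3 highest, CFA rat 1 second and saline rat 1 lowest. That sum correlated with the 870 nt member at 0.98 on the log2 scale.

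The chromosome 14 pair peaked in other rats. The 329 nt circle, 114211803 to 114212243 on the minus strand, had 53.3, 16.9 and 98.5 RPM after CFA and 131, 24.7 and 17.1 RPM after saline. The 595 nt circle with the same end had 33.5, 33.8 and 86.3 RPM against 113, 32.3 and 10.7 RPM. Both were highest in saline rat 1 and next in CFA rat 3. The locus had only 8 reads in its 2 other circles.

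**Figure D4:**
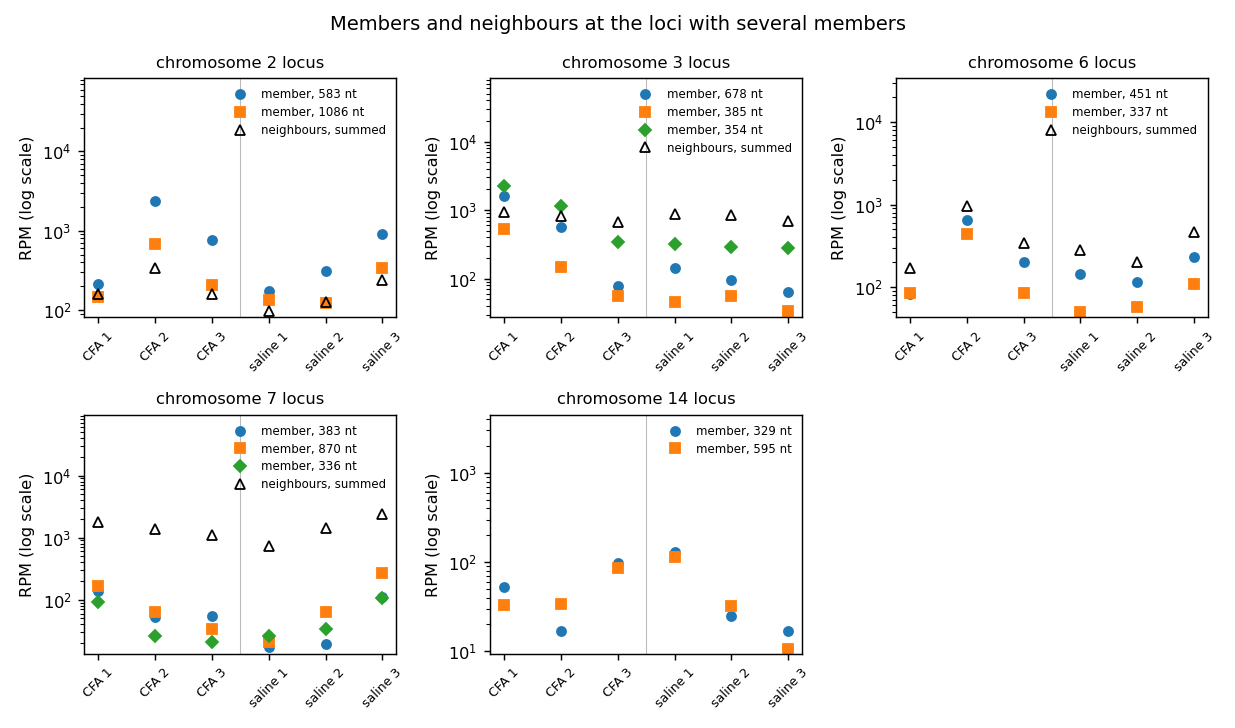
RPM (log scale) of the members (filled) and of the summed neighbours (open triangles, where they had at least 100 reads) in each library at the 5 loci with several members. Neighbours correlate with the members at r of 0.76 to 0.99 at the chromosome 2, 6 and 7 loci. At the chromosome 3 locus r is 0.56 to 0.71, and the neighbours stay within 670 to 931 RPM.

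Of the 8 members more than 3 times higher in their top library than in the next, 2 are the 385 nt circle of chromosome 3 and the 337 nt circle of chromosome 6, and the other 6 were single members of their loci. The 633 nt circle of chromosome 5, 90040536 to 90063651 on the minus strand, had 76.2, 43 and 46.5 RPM after CFA and 68, 58.7 and 453 RPM after saline. Saline rat 3 was 7.75 times the mean of the other 5, and without it the CV was 0.24. Its 4 neighbours were not highest there: they summed to 83.3 RPM in saline rat 3 and to 143 RPM in CFA rat 3, their highest. The 440 nt circle of chromosome 17, 52477332 to 52555114, had 306, 255 and 302 RPM after CFA and 1053, 126 and 171 RPM after saline. Here saline rat 1 was 4.54 times the mean of the others, and the locus held no neighbours with enough reads to compare. The member with the highest ratio in CFA rat 3, a 305 nt circle of chromosome 7 from 130113212 to 130114242, was not dominated by it, with 77.7, 30.7 and 148 RPM after CFA and 78.4, 12.8 and 18.2 RPM after saline. Its CV was 0.74 without CFA rat 3.

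The member with the highest mean, 1070 RPM, was a 686 nt circle of chromosome 8, 33279134 to 33335423 on the plus strand. It had 542, 2583 and 663 RPM after CFA and 638, 901 and 1095 RPM after saline. CFA rat 2 was the outlying animal, and without it the CV was 0.29. The 11 neighbours stayed level, at 2914, 2997 and 3455 RPM against 3308, 2959 and 3463 RPM. The circle thus took 46.3% of its locus in CFA rat 2 and 15.7% to 24% in the other rats.

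Other members also peaked in CFA rat 2. A 531 nt circle of chromosome 2, 143568542 to 143590167, had 76.2, 520 and 121 RPM after CFA and 80.2, 191 and 59.8 RPM after saline. A 542 nt circle of chromosome 5, 37742708 to 37757012, had 113, 757 and 333 RPM against 258, 95.2 and 279 RPM. In both cases the neighbours were highest in the same rat, at 85.9 and 95.1 RPM. A 736 nt circle of chromosome 8, 84434784 to 84461546, was high in CFA rat 2 and saline rat 3 alike, with 297, 648 and 99.6 RPM after CFA and 112, 142 and 625 RPM after saline. Its neighbours followed at r = 0.97.

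Some members were marked by low libraries. The 253 nt circle of chromosome 8, 94799880 to 94801404 on the plus strand, is the sole circRNA of its locus and had 416, 6.14 and 281 RPM after CFA and 207, 405 and 78 RPM after saline. In CFA rat 2 that is 4 reads, 0.0221 times the mean of the other 5. The 333 nt circle of chromosome 1, 73746711 to 73747791 on the minus strand, had 542, 87.5 and 605 RPM against 821, 359 and 70.5 RPM. It was low in CFA rat 2 and saline rat 3, the rats that most often held the members' highest values. The 968 nt circle of chromosome 5, 60390691 to 60393196, was highest in saline rat 2, with 41.1, 56.8 and 188 RPM after CFA and 256, 399 and 100 RPM after saline.

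Low libraries elsewhere rested on few reads. A 651 nt circle of chromosome X, 39860825 to 39885483, had 41.1, 107 and 21 RPM after CFA and 3.49, 30.6 and 106 RPM after saline, where the value of saline rat 1 is 2 reads. A 483 nt circle of chromosome 2, 69623902 to 69632425, had 24.4, 109 and 34.3 RPM against 55.8, 74.8 and 3.2 RPM, the last being 3 reads. The neighbours of the chromosome X circle stood at 312 RPM in saline rat 1 within a range of 202 to 640 RPM. A 470 nt circle of chromosome 8, 120442503 to 120446457, had 13.7, 304 and 121 RPM after CFA and 31.4, 5.95 and 152 RPM after saline. Its neighbours were also lowest in saline rat 2, at 35.7 RPM, and highest in CFA rat 2, at 212 RPM.

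The profiles of 3 more members were mixed. A 529 nt circle of chromosome 13, 113908903 to 113915568, alone at its locus, had 181, 9.21 and 39.8 RPM after CFA and 5.23, 31.5 and 103 RPM after saline. A 952 nt circle of chromosome 4, 132024754 to 132114473, had 359, 36.8 and 215 RPM against 36.6, 35.7 and 97.2 RPM. Its 22 neighbours, summed, held 3853 to 7193 RPM and were highest in saline rats 1 and 2, where the member was low (r = -0.3). The neighbour with the most reads, 726 nt long with the member's start, had 2504, 2528 and 3021 RPM against 3389, 3536 and 1594 RPM. Neighbours with the member's end were highest in CFA rat 1 or 3, like the member. A 586 nt circle had 111, 0 and 83 RPM against 24.4, 62.1 and 54.5 RPM. A 670 nt circle had 45.7, 4.6 and 59.8 RPM against 24.4, 10.2 and 33.1 RPM. A single-segment circle of 357 nt on chromosome 2, 39042496 to 39042852, had 7.62, 204 and 41 RPM after CFA and 41.8, 31.5 and 116 RPM after saline, while its neighbours varied between 290 and 618 RPM.

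The other circles of a member's locus, whose reads the rule did not use, often peaked in the same library as the member. Of the 50 members whose neighbours had at least 100 reads, 27 (54%, exact binomial 95% interval 39.3% to 68.2%, which treats circles as independent although some share a locus) had neighbours highest in the same library. The 50 members lie at 44 loci and the 27 at 22 of them. For the other expressed circRNAs it was 675 of 2373 (28.4%, 26.6% to 30.3%). In the member's highest library the neighbours were 1.48 times their mean in the other 5 at the median, against 1.11 times for other circRNAs. They exceeded 2-fold in 15 of the 50 cases (30%) and in 3.16% of the others. The median CV of the neighbours was 0.396 (0.225 for neighbours of other circRNAs). For 7 of the 50 members (14%) the neighbour sum reached a CV of 0.70, against 2.44% of the other circRNAs. Members of the same locus share a neighbour sum, which these counts include once for each member. The difference between the classes was not tested, and members and others differ in the size of their peaks by the rule.

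**Figure D5:**
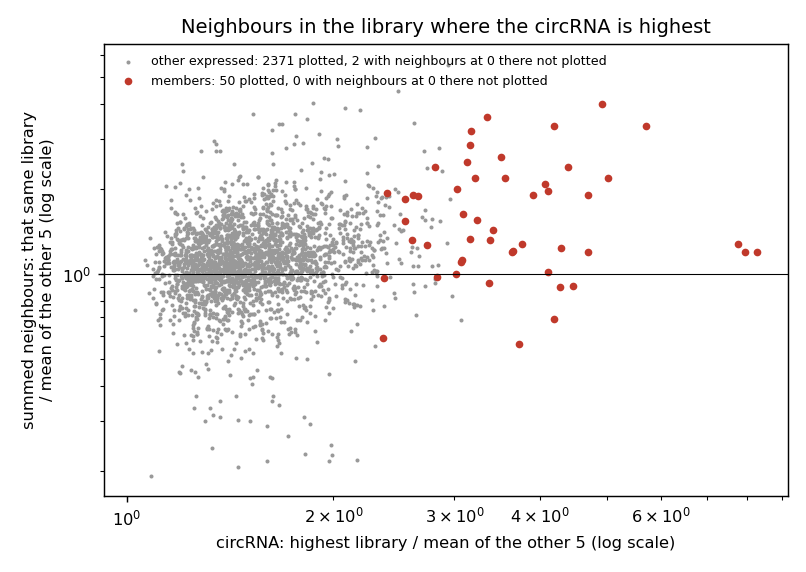
For each circRNA with at least 100 neighbour reads, the ratio of its highest library to the mean of the other 5 (horizontal, log scale) against the same ratio of its summed neighbours in that library (vertical, log scale). Members (red) have a median neighbour ratio of 1.48 and other expressed circRNAs (grey) of 1.11.

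By library, neighbours were highest in the same rat for 15 of 27 members highest in CFA rat 2, 7 of 11 highest in saline rat 3, 3 of 8 highest in CFA rat 1, 2 of 3 highest in saline rat 1 and 0 of 1 highest in CFA rat 3. The 3 for CFA rat 1 are the members of the chromosome 3 locus, which share 1 neighbour sum that was only 1.19 times its mean in the other 5 libraries. For the other expressed circRNAs the shares, in the same order of rats, were 35.5%, 30.8%, 13.6%, 22.7% and 29.6%. Over the 6 libraries the log2 levels of member and neighbours correlated at a median r of 0.62 (quartiles 0.25 and 0.82) and of 0.39 (-0.05 and 0.69) for other circRNAs. Of the 50 members, 14 exceeded 0.8 and 7 were below 0. A 946 nt circle of chromosome 11, 72245130 to 72314401, chosen after its values were seen, had 21.3, 169 and 55.3 RPM after CFA and 20.9, 16.2 and 91.9 RPM after saline. Its 19 neighbours followed with 142, 413 and 196 RPM against 162, 177 and 370 RPM (r = 0.93). At a chromosome 14 locus, also chosen after its values were seen, a 717 nt member from 39169225 to 39186197 had 5.23 RPM in saline rat 1 and 25.5 to 140 RPM in the other rats. Its 9 neighbours are all listed at 0 in saline rat 1 and summed to 224 to 966 RPM in the others.

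Circles under 360 nt made up a larger share of the members than of the other expressed circRNAs, while median length and GC content were close. Median spliced length was 531 nt (quartiles 359 and 686) against 521 nt (415 and 668), and the genomic span was 14305 nt against 12683 nt at the median. GC content had a median of 47.5% in both classes. Circles under 360 nt made up 18 of 69 members (26.1%) and 12.8% of the others. That limit lies next to the members' own lower quartile of 359 nt, and the difference was not tested. A single segment as long as its span was found in 2 members (2.9%), the 357 nt circle above and a 314 nt circle of chromosome 7, 102723273 to 102723586, and in 4.23% of the others. Lengths of 1000 nt or more were found in 2 members, the 1086 nt circle and a 2883 nt circle of chromosome 2, 98509848 to 98586772.

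The members came from 62 loci on 18 chromosomes, 38 on the minus and 31 on the plus strand, with 13 on chromosome 2 (18.8%, against 8.22% of the other expressed circRNAs). A junction end in common with another circRNA was found for 64 members (92.8%) and 91.7% of the others, and 3 members were alone at their locus. The 20 bases around the join were the same as those of another circRNA in 1 member, and in 0 members did they occur inside a circle away from its join. The deposited sequences list 2 members with a second position; the first was used. Adenine made up 28.7% of the bases at the median (28.6% in the others), and 0 members had a run of 10 or more A. The labels' protocol purified RNA with poly-T beads, whose part in these values was not tested.

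Between CFA and saline, 2 of the 69 members were called, both higher in CFA and both from the chromosome 3 locus. All 69 passed the filter of at least 10 reads, which the rule guarantees. Over all 22426 circRNAs tested 0.125% were called and 0.0624% were called higher in CFA (edgeR's quasi-likelihood test, Benjamini-Hochberg adjusted p below 0.05). Since members were chosen for the spread of the same 6 values, these calls are a description of members and nothing is read from their share. The 354 nt circle, novel_circ_0027684, averaged 1252 RPM in CFA rats (SD 958, n = 3) and 298 RPM in saline rats (SD 18.1, n = 3). Its log2 fold change was 2.03 with an SE of 0.32 and an adjusted p of 3.77e-05 in edgeR's quasi-likelihood test. The SEs given here come from the F statistic, whose variance estimates are partly shared across circRNAs. They do not measure the spread between rats, which the SDs show. The 385 nt circle, novel_circ_0027683, averaged 246 RPM (SD 255) against 44.9 RPM (SD 10.5). Its log2 fold change was 2.41 with an SE of 0.42 (edgeR adjusted p = 7.84e-05). The 678 nt circle of the locus averaged 746 RPM (SD 768) against 102 RPM (SD 41) and was not called. Its log2 fold change was 2.87, with an SE of 1.23 and an edgeR adjusted p of 0.912. Without CFA rat 3 it was called (log2 fold change 3.39, edgeR adjusted p = 2.78e-17). Leaving out any other library gave no call of this circle. DESeq2 called 0 of the 69, with 10 at an unadjusted p below 0.05. Without CFA rat 1 the log2 fold changes of the 354 and 385 nt circles were 1.26 and 1.09 and neither was called. The 354 nt circle was called without CFA rat 3 but not when any other library was left out, and the 385 nt circle was also lost without saline rat 1 or 3. In these other cases the fold changes stayed near those of all 6 libraries, at 2.02 to 2.11 for the 354 nt circle and at 2.35 and 2.26 for the 385 nt circle.

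Values of CFA and saline rats did not overlap in 4 members, all higher in CFA, against 2.8% of all expressed circRNAs higher and 3.16% lower. Besides the 2 called circles these were a 573 nt circle of chromosome 16, 54792659 to 54815046, and a 213 nt circle of chromosome 8, 104504801 to 104514522, both named after their values were seen. The first had 64, 170 and 63.1 RPM after CFA and 36.6, 33.2 and 55.6 RPM after saline, with an edgeR log2 fold change of 1.18 (SE 0.45) and an adjusted p of 0.912. The second had 193, 70.6 and 197 RPM against 50.5, 52.7 and 49.1 RPM, with an edgeR log2 fold change of 1.58 (SE 0.41) and an adjusted p of 0.0991. For the 385 nt circle the nearest values were 55.3 RPM in CFA rat 3 and 55.3 RPM in saline rat 2, which differ only in the next digit.

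Log2 fold changes of the members lay more often above 0 than below: the median was 0.48, with 52 of 69 above 0, and over all circRNAs tested it was -0.05. Without CFA rat 2 the members' median was -0.08, with 33 of 69 above 0. After the members' reads were taken out, 55 of the 62 loci kept at least 10 reads, and 0 of these passed (0.0132% of all 7573 loci passed). At an unadjusted p below 0.05 edgeR gave 1 of the 55, against 1.7% of all loci, and DESeq2 called 0. That one, on chromosome 8 from 110419435 to 110472589, had 10.7, 35.3 and 34.3 RPM in its neighbours after CFA and 129, 43.4 and 101 RPM after saline, with an edgeR log2 fold change of -1.77 (SE 0.52) and an unadjusted p of 0.00238. The 587 nt member of that locus, 110419435 to 110447317, had 76.2, 39.9 and 116 RPM after CFA and 204, 45.9 and 44.9 RPM after saline, and its groups overlapped.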

How the data were processed

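circRNA reads were counted in thalamus libraries of 6 rats, 3 per group by the sample titles. The deposited table gives, per the file headers, raw read counts and a normalized value named TPM; the latter was RPM, with 1 read worth the same for every circRNA of a library, made by the authors from totals of which the table holds 99.5% to 99.6%. Positions and sequences came from the deposited sequence headers, with 1 added to the start. The submitters' processing notes name DESeq2 1.20.0, featureCounts 1.5.0-p3, StringTie 1.3.3b and HISAT2 2.0.5, and no circRNA caller. Per the labels' protocols, RNA was purified on poly-T beads and amplified by PCR. There are no molecular identifiers, so counting intervals cover counting error only. The lowest count above 0 was 2.

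RPM were computed from the counts and each column's sum. edgeR 4.0.16 in R 4.3.3 (TMM, robust quasi-likelihood fit, at least 10 reads summed over 6 libraries, Benjamini-Hochberg, 0.05) compared CFA with saline over all circRNAs and over loci without the members' reads. The approach was run on simulated counts with the same dispersion for every circRNA and less spread than the members have. That check therefore does not cover calls on circles as variable as the members. Each SE was derived from the log2 fold change and its F statistic, and does not measure the spread between rats of that circRNA alone. Correlations with locus neighbours (the other circRNAs of a locus that are no members) used log2(RPM + 1). Members, lists and tests were chosen with earlier results of these data known. Named members were the 10 with the highest CV, the 10 with the highest mean, those with the highest and lowest ratio in each library, those called, and those of loci with several members. Alternatives were RLE factors, other filters, DESeq2 1.42.0, a replicate block, other thresholds and leaving out each library.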

Additional observations from a re-analysis of the deposited data

How the results depend on the processing

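The number of members depended on the thresholds: 27 at a mean of 100 RPM, 140 at a CV of 0.60 and 30 at a CV of 0.80. With TMM effective library sizes there were 64, of which 57 were among the 69, and with the authors' normalized values 68, all among them. Leaving out 1 library each gave 48 to 88 members; without CFA rat 2 it was 48, of which 31 were among the 69. Members called between CFA and saline numbered 2 with RLE, 4 without a filter, 0 with filterByExpr (6 at an unadjusted p below 0.05 in edgeR) and 0 in DESeq2 (10 at an unadjusted p below 0.05). Leaving out 1 library each gave 0 (without saline rat 1) to 5 (without CFA rat 3 or saline rat 3), and 1 without CFA rat 1, where the cause was not tested. The circles called differed between settings, and so did the directions. Without saline rat 3 none lay at the chromosome 3 locus, and the 968 nt circle of chromosome 5 was lower in CFA (log2 fold change -1.78). Calls without a filter included the 633 nt circle of chromosome 5, also lower in CFA (-1.87). With the replicate block 3 members were called, all at the chromosome 3 locus. The deviations of rats with the same number were not correlated (r of 0.023, -0.001 and -0.087 over 22426 circRNAs), so the numbers are not read as pairs. The neighbours of member loci gave 0 calls under every alternative run, the replicate block included. The share of members with neighbours highest in the same library was 50.9% to 65.2% under the other settings for neighbours, and 53.1% to 70.8% with 1 library left out, the highest without saline rat 3. The members' median log2 fold change, an alternative chosen after seeing the data, turned from 0.48 to -0.08 without CFA rat 2 and was 0.41 to 1.13 when any of the other libraries was left out. Depth limits the low values: the lowest count of a member was 2 reads.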
